A study of Mus musculus with 4 samples.

Results

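CTCF is a zinc-finger protein that binds DNA at insulators and at the anchors of chromatin loops, where the cohesin ring stops against it. Its sites are largely shared between tissues, and the central part of its motif is contacted by several of its zinc fingers at once. Chromatin immunoprecipitation and sequencing (ChIP-seq) enriches the DNA bound by a protein and reports binding as regions of piled-up reads, each with a summit where the pile is highest. The regions described here are those called with an antibody against CTCF in the library labelled CTCF knockout that have no counterpart in the control list. They were chosen by overlap of the deposited intervals. A region of the labelled-knockout list on chromosomes 1 to 19 is called unshared where it overlaps no control region by 1 bp or more, and shared otherwise. The choice is not independent of strength, which bears on whether a region was called in the other list. Of 15814 such regions, 2198 were unshared, which is 13.9% (Wilson 95% interval 13.4 to 14.4), and 13616 were shared. A further 94 unshared regions on other chromosomes are left out.

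Both libraries were made from C57BL/6 left ventricles, from which cardiac myocytes had been isolated. One is labelled CTCF knockout and the other control. Each pooled 3 hearts, which leaves 1 ChIP library per genotype without a replicate. The labels used here do not give the allele, the Cre line or the age of the mice. The library labelled knockout held 16128 regions and the control 20043, and since CTCF is itself the labelled target, the library is called by its label throughout. No test between genotypes was possible; intervals cover counting error only, and regions of 1 library are not replicates. An unshared region has no value in the control list, so "unshared" means only that the control list has nothing at that place, not that CTCF was absent from it. The reads at the summit (the pileup) and the local background were solved from the deposited fold enrichment and −log10 p. The lowest background was 0.851 reads in the library labelled knockout and 1.01 reads in the control.

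Where an unshared summit fell in an annotated promoter, its sequence could be read. Of the unshared regions, 48 had a summit inside a RefSeq promoter window (GRCm38.p6, the assembly called mm10; 250 bases before to 50 after a gene start), in 51 windows. The letters searched were 4 CTCF core words, AGGGGGC and AGGTGGC and AGAGGGC and AGATGGC, on both strands. A longer pattern of 12 bases was CC, any 3 bases, AG, any 2 bases and GGC, also on both strands. Its last 7 bases cover the place of the words, so a site can match both. Windows that hold the same summit overlap in sequence, and the intervals below count them separately. At least 1 of the words stood in 28 of the 51 windows (54.9%, interval 41.4 to 67.7), in 571 of 849 windows holding a shared summit (67.3%, 64.0 to 70.3) and in 8729 of 31396 promoter windows on chromosomes 1 to 19 (27.8%). The longer pattern stood in 19 of the 51 windows (37.3%, 25.3 to 51.0), in 46.9% of the windows with a shared summit and in 8.73% of all promoter windows. Windows with a summit were richer in G and C, with a median GC content of 62.7% for unshared and 61.3% for shared summits, against 53% over all promoters. With all promoters weighted to the GC content of the unshared windows, an alternative chosen after the data were seen, the words stood in 35.5% and the longer pattern in 12.7%. Both shares of the unshared windows lay above these weighted values, and below those of shared windows with intervals that overlap. With a −log10 q of at least 5 in both lists the words stood in 45.8% of unshared windows (32.6 to 59.7), and with a fold enrichment of at least 5 in both in 47.3% (34.7 to 60.2). These intervals cover 35.5%, but that value was weighted to the 51 windows above and not to the windows of these settings.

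The 7 promoters below are those of unshared regions in which the longer pattern lay nearest the summit, and they show what the match looks like. Each line gives up to 60 bases on either side of the summit on the strand of the gene, with the longer pattern, or its reverse complement, in capitals.

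Plxna2, chr1:194619750-194619870, + strand: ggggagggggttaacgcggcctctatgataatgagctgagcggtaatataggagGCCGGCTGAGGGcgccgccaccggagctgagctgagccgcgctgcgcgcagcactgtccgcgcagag
Gm39955, chr2:147256865-147256985, - strand: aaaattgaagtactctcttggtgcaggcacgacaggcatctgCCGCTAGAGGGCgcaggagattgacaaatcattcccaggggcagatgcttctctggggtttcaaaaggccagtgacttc
Cobll1, chr2:65238814-65238934, - strand: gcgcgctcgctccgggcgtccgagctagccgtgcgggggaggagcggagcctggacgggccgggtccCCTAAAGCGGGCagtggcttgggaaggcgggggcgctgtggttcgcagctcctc
Gm35874, chr8:123652741-123652861, - strand: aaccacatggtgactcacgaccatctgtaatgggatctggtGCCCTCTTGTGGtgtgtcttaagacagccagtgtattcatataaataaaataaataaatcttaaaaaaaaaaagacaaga
Bod1l, chr5:41844351-41844471, - strand: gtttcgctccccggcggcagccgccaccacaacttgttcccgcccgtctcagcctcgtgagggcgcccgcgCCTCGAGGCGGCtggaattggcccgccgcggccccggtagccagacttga
Gm10825, chr10:22402657-22402777, + strand: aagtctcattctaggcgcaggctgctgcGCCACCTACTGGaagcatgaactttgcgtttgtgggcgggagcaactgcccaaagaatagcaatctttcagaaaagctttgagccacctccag
Ehd3, chr17:73804618-73804738, + strand: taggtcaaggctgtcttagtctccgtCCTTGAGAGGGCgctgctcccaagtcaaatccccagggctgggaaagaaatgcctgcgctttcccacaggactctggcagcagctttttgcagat

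In Plxna2, a semaphorin receptor gene, the centre of the pattern lay 0.5 bp from the summit. The region, chr1:194619681-194619942, had a fold enrichment of 4.93 from 13 reads and lay 605 bp from a control summit. In Ehd3, which encodes a protein of endocytic recycling, it lay 28.5 bp away, in a region with a fold enrichment of 5.58 and a control summit 60.6 kb off. The uncharacterised gene Gm39955 held CCGCTAGAGGGC 12.5 bp from a summit with a fold enrichment of 6.34. This match also contains a core word, as do, on either strand, those at Ehd3, Gm35874 and Gm10825. The other regions in this group, at Cobll1, Gm35874, Bod1l and Gm10825, had fold enrichments of 4.32, 4.32, 4.66 and 7.02. Over the 18 unshared regions with the longer pattern in a promoter window, its centre was a median of 46.5 bp from the summit, and 9 of them had it within 50 bp (50%, interval 29.03 to 70.97). Over the 367 shared regions the median was 25.5 bp, and 290 had it within 50 bp (79.0%, 74.6 to 82.9). The match therefore lay within 50 bp less often in unshared than in shared regions, and these intervals do not overlap. The unshared share rests on 18 regions, and the medians have no interval. All promoters weighted to the GC content of the unshared windows held the pattern in 12.7%, and the part of such matches here was not tested.

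The 2 strongest unshared regions at promoters with neither pattern are shown for contrast. They lay at Snx33, which encodes a sorting nexin, and Adap1, which encodes a protein that acts on Arf GTPases. No base is in capitals because nothing matched.

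Snx33, chr9:56928322-56928441, - strand: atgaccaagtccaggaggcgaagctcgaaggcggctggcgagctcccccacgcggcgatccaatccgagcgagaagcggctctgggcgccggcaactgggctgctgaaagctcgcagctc
Adap1, chr5:139325575-139325695, - strand: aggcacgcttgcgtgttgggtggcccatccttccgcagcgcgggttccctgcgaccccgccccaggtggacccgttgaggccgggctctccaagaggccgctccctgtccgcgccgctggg

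The Snx33 region (chr9:56928187-56928678) had a fold enrichment of 7.56 and the Adap1 region (chr5:139325528-139325670) 7.23, each from 13 reads. Their nearest control summits were 9.35 and 6.27 kb away. Sequence outside promoter windows was not used here, so these shares cover a small part of the unshared regions.

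**Figure D1:**
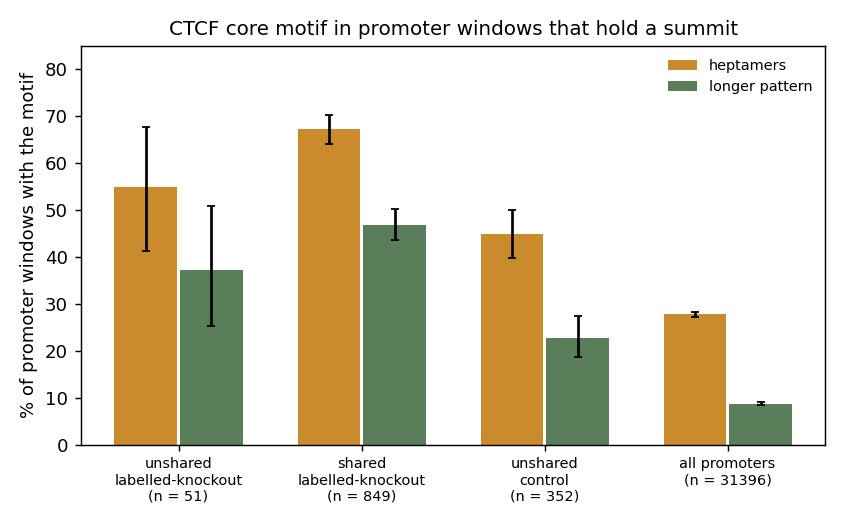
Share of promoter windows that hold a CTCF core word (heptamers) or the longer pattern, for windows with an unshared labelled-knockout summit, a shared labelled-knockout summit or an unshared control summit, and for all promoters on chromosomes 1 to 19. Bars are percentages with Wilson 95% intervals; the longer pattern stood in 37.3%, 46.9%, 22.7% and 8.73% of windows.

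Unshared regions were weak and narrow within their own list. Strength and the call in the other library are not independent, so these values are a description with no test. Their median fold enrichment was 5.40 (range 1.89 to 12.4), against 7.56 for shared regions (range 1.72 to 40.0). The median pileup was 10 reads, with a range of 6 to 161, against 15 reads in shared regions. Median width was 163 bp for unshared and 237 bp for shared regions. A width of at most 140 bp, next to the narrowest of 137 bp, was found in 27.2% of unshared and 5.01% of shared regions. The lowest background of the library stood under 42.6% of unshared and 28.8% of shared regions. Thus most unshared regions rested on about 10 reads over a background near 1 read.

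The unshared share was lower at higher pileup in both lists up to 29 reads. In the library labelled knockout it was 56.8% at 6 to 7 reads (interval 49.97 to 63.4), 27.4% at 10 to 11 reads, 3.93% at 15 to 19 reads and 1.25% at 20 to 29 reads. Among control regions, of which 30.9% had no labelled-knockout counterpart, it was 86.7%, 61.0%, 16.2% and 4.004% in the same classes. In each class up to 29 reads the unshared share was lower in the library labelled knockout than in the control. The libraries differed in lowest background, and the autosomal lists held 15814 and 19701 regions. With a control list cut to equal length 22.1% of all labelled-knockout regions were unshared. The part of background and list length in the classes was not tested. At 30 or more reads, 26 of 672 labelled-knockout regions were unshared (3.87%, interval 2.65 to 5.61), against 49 of 1349 control regions (3.63%, 2.76 to 4.77), and 23 of these 26 had a local background over 5 reads. With a −log10 q of at least 5 in the labelled-knockout list, 1085 of 12795 regions were unshared (8.48%).

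**Figure D2:**
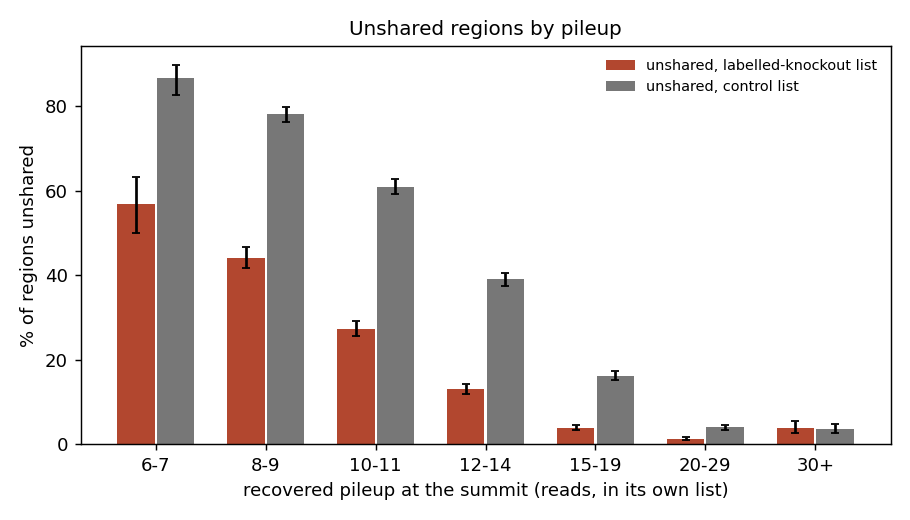
Percentage of regions with no counterpart in the other list, by recovered pileup at the summit (reads), for the library labelled knockout (left bar of each pair) and the control (right bar), with Wilson 95% intervals. The labelled-knockout share is 56.8% at 6 to 7 reads, 1.25% at 20 to 29 reads and 3.87% at 30 or more.

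The strongest unshared region lay deep inside Abca13, a gene for an ATP-binding cassette transporter, at chr11:9317407-9317589. It had 22 reads over a background of 0.851 and a fold enrichment of 12.4, and the nearest control summit was 164 kb away. Regions 8.24 kb from Igfn1 (chr1:135944837-135945081), 1.03 kb from Has2 (chr15:56695441-56695712) and at an end of Rnf150 (chr8:82863139-82863531) each had 21 reads and a fold enrichment of 11.9. Igfn1 encodes an immunoglobulin-domain protein of striated muscle, Has2 makes hyaluronan, a matrix sugar needed for heart valve formation, and Rnf150 encodes a RING finger protein. Their nearest control summits stood 0.926, 359 and 119 kb away. Next came regions near Caly (11.7) and Calb2, the calretinin gene (11.6). Regions inside Akap6, Tpm3 and Plxnd1 and one 39.9 kb from Lcor, a corepressor gene, each had a fold enrichment of 11.3 from 20 reads. Akap6 encodes an anchoring protein for protein kinase A at the nuclear envelope of cardiac myocytes, Tpm3 a tropomyosin and Plxnd1 a semaphorin receptor of blood vessels. The 10 strongest unshared regions thus included places beside a control summit as well as places over 100 kb from any.

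Distance to the nearest control summit separated the unshared regions into a close group and a distant one. The median was 14.4 kb (interval 12.6 to 16.6), with quartiles at 1.83 and 52.8 kb and a largest distance of 3.01 Mb. Within 500 bp lay 345 regions (15.7%, interval 14.2 to 17.3), between 500 bp and 1 kb 109, between 1 and 10 kb 514, between 10 and 100 kb 905 and beyond 100 kb 325. The closest group was narrow: 129 summits stood over 200 and up to 300 bp and 138 over 300 and up to 400 bp from a control summit, but 50 over 400 and up to 500 bp. Smaller distances are limited by the rule, which asks for no overlap. For comparison, shared regions were measured to the nearest control summit among regions they did not overlap. That median was 14.5 kb, with 1126 of 13616 within 1 kb (8.27%, interval 7.82 to 8.74), whereas 454 of the 2198 unshared regions lay within 1 kb (20.7%, 19.01 to 22.4). Unshared control regions, measured to the nearest labelled-knockout summit, had a median of 23.9 kb and 716 of 6091 within 1 kb (11.8%, 10.97 to 12.6). Of these, 145 stood over 200 and up to 300 bp away, 175 over 300 and up to 400 bp and 95 over 400 and up to 500 bp. Within 100 kb lay 85.2% of unshared and 91.1% of shared regions. On these measures unshared regions held more of both the closest and the most distant places than shared ones. The measures are unlike, since the control partner of each shared region is skipped and takes up the space closest to it. The part of this in the shares was not tested.

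**Figure D3:**
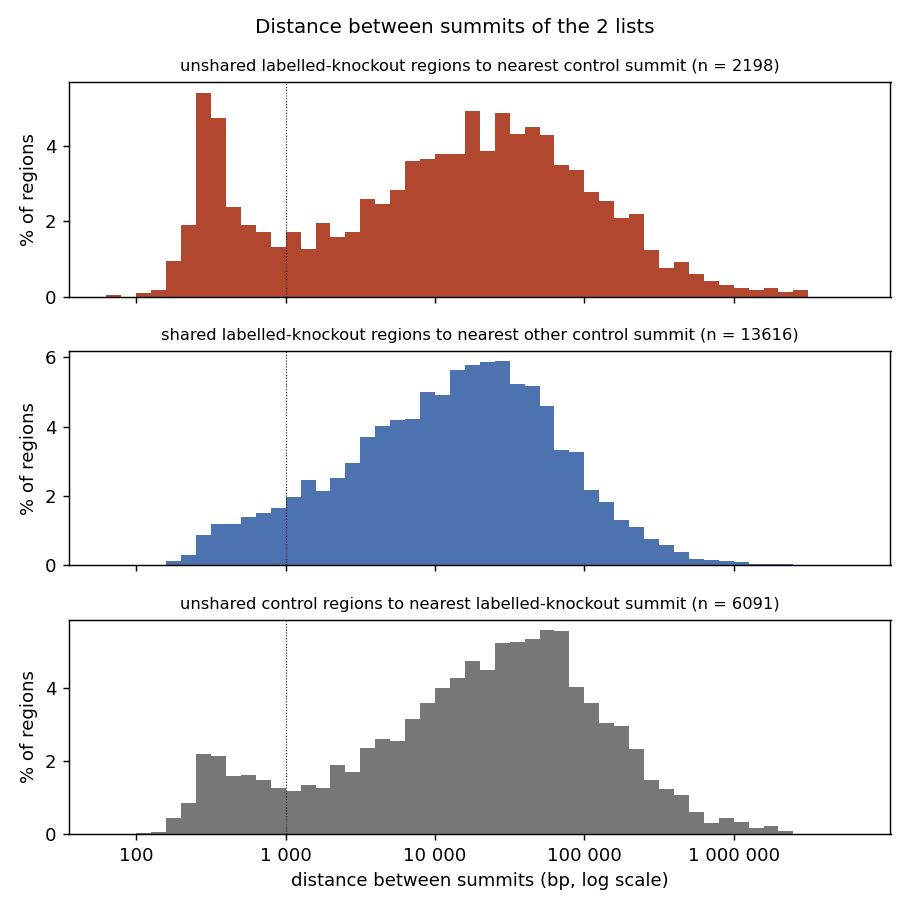
Distance between summits (bp, log axis) as a percentage of regions, for unshared labelled-knockout regions to the nearest control summit (top), shared labelled-knockout regions to the nearest control summit of a region they do not overlap (middle) and unshared control regions to the nearest labelled-knockout summit (bottom); the dotted line marks 1 kb. The top panel has a narrow peak between 200 and 400 bp and a broad one beyond 1 kb. The median over all its regions, both peaks included, is 14.4 kb.

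The close group mostly flanked places called in both libraries. For 347 of the 454 unshared regions within 1 kb (76.4%, interval 72.3 to 80.1), the nearest control region was itself overlapped by another labelled-knockout region. Of these 347, 344 had a shared labelled-knockout summit within 1 kb, at a median of 370 bp over the group. That other region is shared by definition, so a shared summit nearby is nearly given by the grouping. The flanking unshared regions had a median of 9 reads, the control regions beside them a median of 20 reads, and the control pileup was the higher one in 326 of 347. The same order held over all autosomes, where overlapped control regions had a median of 18 reads and unshared regions 10. The other 107 lay beside a control region that no labelled-knockout region overlapped, at a median of 298 bp, with a median of 10 reads on both sides. The nearest control region was overlapped in 76.4% of cases within 1 kb and in 56.9% beyond 100 kb, and 69.1% of all autosomal control regions were overlapped. Flanking was not particular to the labelled-knockout list. For unshared control regions within 1 kb of a labelled-knockout summit, the nearest region was overlapped by another control region in 603 of 716 (84.2%, 81.4 to 86.7). Unshared regions up to 1 kb from a control summit had a median fold enrichment of 5.07, those at 1 to 10 kb 5.62, those at 10 to 100 kb 5.66 and those beyond 100 kb 5.94.

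At the limit of the rule, the fold enrichments of the regions named on both sides overlapped in range. Unshared regions near Gal3st2b, Zc3h3 and Col26a1 touched a control region without overlapping it, and those near Znrf3 and Gabbr2 were 1 bp away. Their fold enrichments were 4.83, 5.37, 7.23, 3.90 and 4.86. The shared regions with the smallest overlap, at Wipf1 (1 bp), Cdsn and Sh3gl1 (2 bp each) and Smim4 and Notch3 (4 bp each), had fold enrichments of 5.36, 5.40, 5.37, 4.39 and 5.26. At the opposite extreme, the unshared region farthest from a control summit (chr5:60804146-60804282) had no protein-coding gene within 100 kb and 8 reads. The next at chr16:68509886-68510022 stood 2694 kb from a control summit with 13 reads, also far from coding genes. A region 28.4 kb from the vomeronasal receptor gene Vmn2r52 (4.09), one at chr10:48947662-48947820 (4.86) and one 53.6 kb from Ctnna2, a catenin gene of neurons (5.85), followed. Background at the 5 farthest regions ran from 0.851 to 4.47 reads.

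Unshared regions lay at gene ends less often than shared ones. Within 1 kb of either end of a protein-coding or long non-coding gene stood 345 of 2198 unshared regions (15.7%, interval 14.2 to 17.3), against 2834 of 13616 shared regions (20.8%, 20.1 to 21.5). The difference was -5.12 percentage points (interval -6.73 to -3.40), and -4.65 points against shared regions of the same fold enrichment. With unshared regions over 1 kb from a control summit only, chosen after the data were seen, it was -7.34 points. With a reciprocal overlap of at least 50% as the definition of shared it was -0.764 points, with an interval that covers 0. Inside genes lay 47.0% of unshared and 44.5% of shared regions. Between genes lay 819 unshared regions (37.3%) and 34.7% of shared ones, a difference of 2.57 points (0.414 to 4.76). This was -0.573 points under reciprocal overlap, 0.946 (-0.951 to 2.87) with shared regions defined by summits at most 100 bp apart and 1.58 (-0.653 to 3.83) with protein-coding genes only. With a −log10 q of at least 5 in the labelled-knockout list it was 2.41 (-0.556 to 5.46), so under these 4 settings the difference did not stand apart from 0. Unshared control regions stood at gene ends in 24.5% of cases and between genes in 28.99%. Among genes whose strand the promoter table gives, 8.05% of unshared regions (interval 6.97 to 9.29) and 12.2% of shared regions (11.7 to 12.8) lay within 1 kb of a 5' end. For 3' ends the shares were 5.23% (4.36 to 6.26) and 5.94% (5.55 to 6.36). The shortfall was thus measured at gene starts, while the intervals for 3' ends overlapped.

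**Figure D4:**
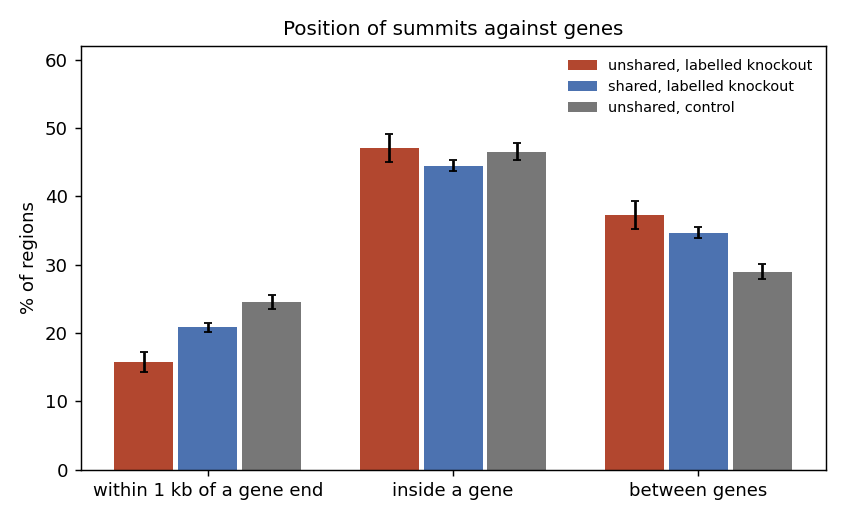
Percentage of summits within 1 kb of a gene end, inside a gene or between genes, for unshared labelled-knockout, shared labelled-knockout and unshared control regions, with Wilson 95% intervals. At gene ends the values are 15.7%, 20.8% and 24.5%.

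Position also differed with distance from the control list. Of unshared regions up to 1 kb from a control summit, 24.2% stood at a gene end (interval 20.5 to 28.4). This was 14.4% at 1 to 10 kb, 14.5% at 10 to 100 kb and 9.23% beyond 100 kb (6.54 to 12.9). Between genes lay 33.3% of the closest and 49.5% of the most distant class. Protein-coding genes over 200 kb long held 254 unshared regions (11.6%, interval 10.3 to 13.0) and 8.505% of shared ones (8.05 to 8.99). More than 100 kb from any protein-coding gene lay 158 unshared regions (7.19%, 6.18 to 8.34) and 3.90% of shared ones (3.59 to 4.24). The median distance to an end of a protein-coding gene was 11.8 kb for unshared and 8.60 kb for shared regions.

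Among the strongest unshared regions at protein-coding gene ends, after Rnf150, were those beside Gdf5, a bone morphogenetic protein family ligand (chr2:155946181-155946389, fold enrichment 10.4), and Htr1a, a serotonin receptor gene (chr13:105442689-105442855, 10.3). Fat4, an atypical cadherin gene of planar cell polarity, had one at 9.73 with a control summit 2.79 kb away. Regions at Znrf1 (9.19) and Duoxa2 (8.64), which encode a ubiquitin ligase and a maturation factor of dual oxidase, stood only 196 and 279 bp from a control summit. The lipoxygenase gene Alox12e had 8.17 and Vamp5, a vesicle protein gene of muscle, 8.10. Cox5a, a subunit of respiratory complex IV, had a region 0.006 kb outside its span (chr9:57517236-57517427) with 15 reads and a fold enrichment of 7.69, and the nearest control summit was 24.2 kb away. The regions named here ranged from under 300 bp to over 200 kb from a control summit.

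Near genes of heart muscle 4 lists were counted, each with too few regions to place its share against that of all regions. Within 10 kb of the sarcomere and Z-disc genes, 3 of 29 labelled-knockout regions were unshared (10.3%, interval 3.58 to 26.4), against 13.9% of all regions. Among them were regions inside Ttn, the giant spring protein (5.82), and 9.88 kb from Myl7, the atrial light chain (5.85). Of 44 regions near calcium handling and ion channel genes 5 were unshared (11.4%, interval 4.95 to 23.98). Among them were regions inside Cacna1c (5.94) and Cacnb2 (5.40), which encode subunits of the L-type calcium channel, and one 2.63 kb from Pln, the inhibitor of the calcium pump of the sarcoplasmic reticulum (4.88). Cacna1c had 1 unshared region of 5. Near fatty acid and energy genes 2 of 21 were unshared (9.52%, interval 2.65 to 28.9), inside the hexokinase gene Hk2 (6.34) and 5.38 kb from Ckmt2, the mitochondrial creatine kinase gene (5.77). Near cardiac transcription factor genes 2 of 24 were unshared (8.33%, interval 2.32 to 25.8), inside Srf (5.94) and Tbx20 (5.85). With reciprocal overlap or the summit rule this share was 25% (11.9994 to 44.9), against 25.5% and 18.7% of all regions under the same rules. The Tbx20 region (chr9:24760557-24760742) was the 1 labelled-knockout region near that gene, and its nearest control summit stood 177 kb away.

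Near stress and fetal genes 4 of 21 regions were unshared (19.05%, interval 7.67 to 40.001), an interval that covers the 13.9% of all regions. The strongest was 6.495 kb from Nppa, the atrial natriuretic peptide gene re-expressed in failing ventricles (chr4:148008478-148008654). It had 15 reads and a fold enrichment of 8.26, was the 1 labelled-knockout region within 10 kb of Nppa, and stood 7.11 kb from a control summit. Regions near Postn (6.60), the periostin gene, and Gadd45b (5.43), a stress response gene, were also unshared. Near genes of CTCF, cohesin and chromatin architecture 5 of 24 were unshared (20.8%, interval 9.24 to 40.5), and this interval also covers 13.9%. These included regions inside Zfp143 (9.19), whose product is found with CTCF at many loop anchors, at an end of Satb1 (7.02), a chromatin organiser of lymphocytes, and inside Top2b (6.20), a topoisomerase gene. Near genes of histone lysine methylation 4 of 39 were unshared (10.3%, interval 4.06 to 23.6), again with 13.9% inside the interval. Among them were regions inside Setd1b (5.94), 9.76 kb from Ezh1 (5.40) and 8.58 kb from Ehmt2 (5.28), genes that encode methyltransferases of histone H3.

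Markers of other cell types and clustered gene families were read in the same way. Near fibroblast and matrix genes 4 of 27 were unshared (14.8%), among them the Has2 region, the Postn region and one inside Col5a1 (6.59). Near endothelial genes 1 of 18 was unshared, inside Sox17 (5.17). Near immune genes it was 0 of 12, which allows a share of up to 25%. Near smooth muscle and pericyte genes 3 of 18 were unshared, with 2 of them inside Cspg4, the proteoglycan NG2 (5.85 and 4.74), and 1 near the calponin gene Cnn1 (7.80). In the Hox clusters 1 of 14 was unshared, within the span of Hoxa3 and the promoter window of Hoxa5 (4.81). In the protocadherin clusters it was 2 of 10, at Pcdhga1 (6.48 and 4.32), a cell adhesion gene of neurons. Near olfactory receptor genes 7 of 31 were unshared (22.6%, interval 11.4 to 39.8), with the strongest near Olfr325 (8.64), Olfr854 (6.83) and Olfr117 (6.48). Near zinc-finger genes named Zfp it was 24 of 175 (13.7%), led by Zfp143, Zfp469 (7.56) and Zfp3 (7.19). Near genes listed as tandem families by the start of their symbols, cytochrome P450 genes among them, it was 6 of 26 (23.1%, 11.03 to 42.1). These included regions near Cyp2t4 (8.10), Cyp21a1 (7.02) and Cyp2u1 (5.87), and membership of a tandem array was not checked. Near vomeronasal receptor genes 4 of 7 were unshared (57.1%, 25.05 to 84.2), where Vmn2r96 held one (7.78) and 2 adjacent ones stood near Vmn1r235 (5.36 and 4.86). The interval covered 13.9% for all 17 lists and families except the vomeronasal receptors, which had 7 regions in all. Near the vomeronasal receptors the share was 25% (4.56 to 69.9) where −log10 q was limited to 5 or more, in both lists or in the labelled-knockout list, and 50% (15.004 to 84.996) with a fold enrichment of at least 5 in both. These intervals cover the shares over all regions under the same settings, which were 15.8%, 8.48% and 16.7%. Within 50 kb of these genes the share was 27.6% (14.7 to 45.7), and this interval does not cover 13.9%. Over the 11 lists of named genes together, 32 of 273 regions were unshared (11.7%, 8.43 to 16.1).

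**Figure D5:**
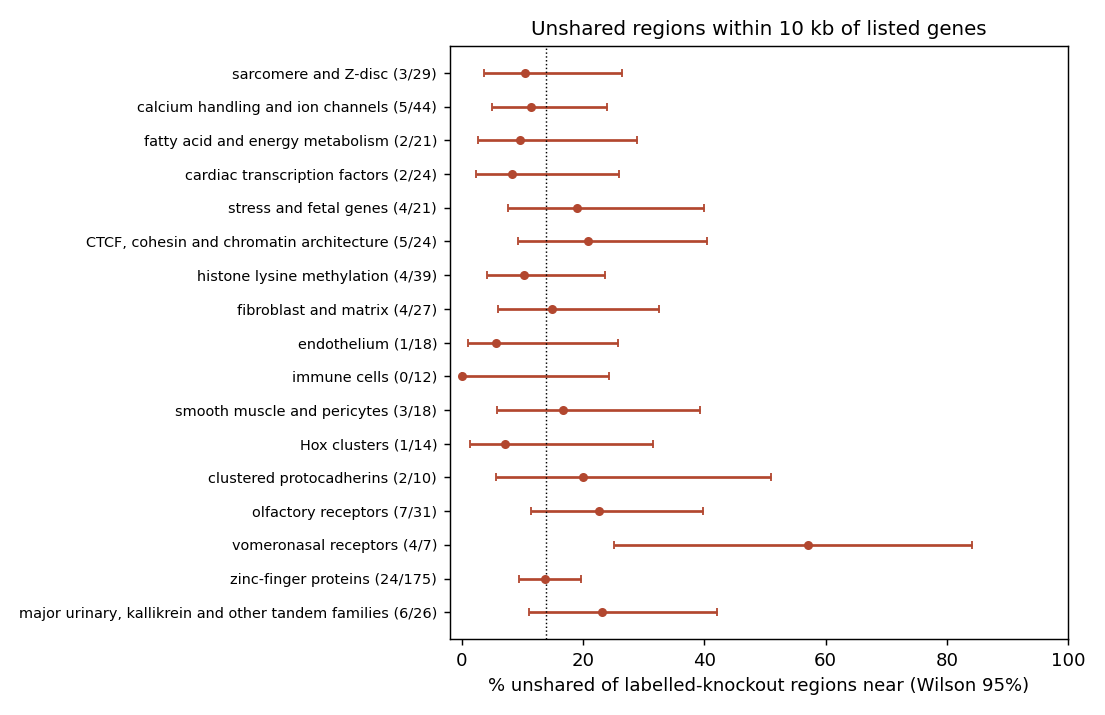
Percentage of labelled-knockout regions within 10 kb of the genes of each list that were unshared, with Wilson 95% intervals; counts stand in parentheses and the dotted line is 13.9%, the share over all autosomal labelled-knockout regions. All intervals except that of the vomeronasal receptors (4 of 7) cross the line.

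Over the 19 autosomes the unshared share ran from 11.7% on chromosome 4 (interval 9.95 to 13.8) to 16.9% on chromosome 13 (14.1 to 20.03). Another unshared summit within 10 kb was found for 162 of 2198 (7.37%, interval 6.35 to 8.54), in 72 pairs and 5 longer chains. The largest chain held 5 unshared regions within Tmem267 (chr13:119595642-119603449), with fold enrichments from 2.37 to 3.04 and a local background of up to 25.7 reads, and 5 shared regions between them. A chain of 4 at Gm40367 (chr6:47664242-47681709) had a background of up to 5.72 reads. Chains of 3 lay within Cdkl4 (6.40 to 9.64), 26.4 kb from Mdga1 and 13.1 kb from Idh2, the mitochondrial isocitrate dehydrogenase gene. The widest unshared regions were 544 and 507 bp, both in the Tmem267 chain, and 498 bp within Vax2, a homeobox gene of the eye (6.83). A region 35.98 kb from Ccr1, a chemokine receptor gene, was among the 5 with the highest −log10 p, with 74 reads over a background of 17.3. In all, 31 unshared regions had a background over 5 reads. Without regions of such background in either set, chosen after the data were seen, the unshared share was 13.9%.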

How the data were processed

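CTCF ChIP-seq region lists of 2 libraries were used, 1 labelled CTCF knockout and 1 control; the input samples were not analysed here. The submitters' processing notes name the mm10 build and the tools MACS2, SAMtools (0.1.19) and Bowtie2 (2.2.6), without the version or threshold of MACS2. For each region the authors deposited a summit, a score, a fold enrichment (a ratio over local background) and its −log10 p and q. The deposited score equals 10 × −log10 q, rounded down, in both lists; the lowest −log10 q was 1.37 in the labelled-knockout list and 1.32 in the control.

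Depth is unknown. Taking fold enrichment as (pileup + 1) / (background + 1) and p as the Poisson upper tail, 100% of regions had a whole pileup whose −log10 p differed by at most 0.001 from the one the authors gave. Overlap, distance, motif and interval code was tested on simulated data. Distances run from summits; a gene names a region if its protein-coding span is nearest and within 100 kb. Of the 33073 protein-coding and lncRNA genes on chromosomes 1 to 19 of the RefSeq table, 25748 had a strand; chromosome 18 has no entry among the promoters. Of 256 listed symbols 249 were matched there. Named regions followed fixed rules of rank (strongest, closest, farthest, widest, chained, highest −log10 p, at coding gene ends, up to 3 per list). The promoters shown were chosen after their values were seen. The members and lists were chosen with earlier results of these data known. Intervals are Wilson 95% intervals for shares, Newcombe intervals for differences and order-statistic intervals for medians. The software was Python 3.11.15 with scipy 1.17.1, pandas 2.3.3, numpy 2.4.6 and matplotlib 3.10.9. Regions at some genes that the naming rules select are not reported here.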

Additional observations from a re-analysis of the deposited data

Results flagged for a closer look

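Outside the autosomes, 62 of 217 labelled-knockout regions on chromosome X (28.6%, interval 23.0 to 34.9) and 30 of 83 on chromosome Y (36.1%, 26.6 to 46.9) overlapped no control region, against 13.9% on chromosomes 1 to 19. On the mitochondrial chromosome it was 2 of 14 (14.3%, 4.01 to 39.9). The X and Y counts are listed because these regions take no part in the comparisons above; the difference from the autosomes was not tested.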

How the results depend on the processing

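No paired analysis was possible because there was 1 library a genotype, and for the same reason no replicate could be left out. In the order overlap of at least 50% of both regions (reciprocal overlap), a summit at most 100 bp away, gaps of up to 500 bp counted as shared, −log10 q of at least 5 in both lists, fold enrichment of at least 5 in both, −log10 q of at least 5 in the labelled-knockout list only and a control list cut to equal length, the unshared share was 25.5%, 18.7%, 11.3%, 15.8%, 16.7%, 8.48% and 22.1%, against 13.9%. In the same order, the median distance to a control summit was 351, 4442, 23372, 26190, 20597, 20031 and 21311 bp, against 14426 bp. The share within 10 kb of a control summit was 69.5%, 58.5%, 31.1%, 31.2%, 34.9%, 36.9% and 35.6%, against 44.0%. The share with another unshared summit within 10 kb was 16.0%, 11.5%, 5.15%, 4.69%, 6.31%, 3.78% and 10.7%, against 7.37%, and 19.6% within 50 kb. Each setting in this order alters which regions count as shared or which are kept. It was not tested how much of the movement in these values that accounts for. The gene end difference stayed negative and was -0.764 points with reciprocal overlap, -1.76 with the summit rule, -7.25 with gaps of up to 500 bp, -7.84 with the −log10 q limit in both lists, -8.25 with it in the labelled-knockout list, -8.85 with a window of 5 kb and -7.34 without regions within 1 kb of a control summit, against -5.12. The difference between genes was -0.573 with reciprocal overlap, against 2.57, and its interval also covered 0 with the summit rule (0.946), with protein-coding genes only (1.58) and with the −log10 q limit in the labelled-knockout list (2.41); it was positive and apart from 0 under the other settings with an interval. The cause of these changes was not tested. Unshared minus shared median fold enrichment was -1.93 with reciprocal overlap, -1.79 with gaps of up to 500 bp, -1.81 and -1.62 with the −log10 q limit in both lists and in the labelled-knockout list, and -2.05 with the fold limit, against -2.16; in −log10 p it was -5.30. The unshared share near the 11 gene lists was 22.3% with reciprocal overlap, 19.05% with the summit rule, 16.2% with the fold limit and 18.7% with equal length, against 11.7%. The motif share was 37.3% with the longer pattern, 45.8% with the −log10 q limit in both lists, 47.3% with the fold limit and 45.9% with equal length, against 54.9%. For single lists and families 140 values stayed within the interval of the value given and 13 moved. Pileups of about 10 reads limit what can be said of any single unshared region.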
